A study of Mus musculus with 44 samples.

Results

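The regions described here are stretches of the mouse genome that carried a peak of histone H3 lysine 4 trimethylation (H3K4me3) in normal hepatocytes and in none of the cells at the biliary end of the series. They were chosen by merging overlapping H3K4me3 peaks of 11 libraries and keeping the merged regions with a peak in both hepatocyte libraries and in no late and no biliary library. This left 2202 of 42214 merged regions, called lost regions below, out of 15562 with a peak in both hepatocyte libraries. Retained regions, the comparison set, are the 10898 with a peak in both hepatocyte and all 3 late libraries. H3K4me3 in hepatocyte, late and biliary libraries therefore selected the regions and is given below as a description only.

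The study followed hepatocytes on their way to a biliary-like state in mice with injured bile ducts. Mice carried a Cre-dependent Cas9-EGFP allele (Rosa26-LSL-Cas9-EGFP, genotype given as wild type), and all groups had received AAV8-TBG-Cre, a virus whose TBG promoter is active in hepatocytes, so that hepatocytes and their descendants turned EGFP positive. Normal hepatocytes (Hep, 2 libraries per mark) came from mice on normal diet and were isolated on a Percoll gradient. The other groups were sorted from mice fed 0.1% DDC, a toxin that blocks and injures bile ducts, for 8 to 9 weeks: early cells (EGFP positive, CD24 negative, 2 libraries), intermediate cells (EGFP and CD24 positive, EPCAM negative, 2 libraries), late cells (EGFP, CD24 and EPCAM positive, 3 libraries) and biliary epithelial cells (BEC, EGFP negative and EPCAM positive, 2 libraries). Each group was profiled for H3K4me3, H3K27ac, H3K4me1 and H3K27me3 with CUT&Tag chemistry: the transposase Tn5, tethered to the antibody against a mark, cuts the DNA next to it. In every comparison with Hep, the diet and the way the cells were isolated cannot be told apart from the stage, whereas early, intermediate, late and BEC cells share both. The labels do not say which libraries came from separate animals, so p-values measure the spread between libraries. EGFP marks origin from a cell with an active TBG promoter at the time of injection, not present identity.

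H3K4me3 marks the start sites of genes that are being transcribed or are ready to be. Promoters rich in CpG dinucleotides tend to keep this mark in most cell types, while promoters poor in CpG, common among genes used by one tissue, tend to carry it only where the gene is active. H3K27ac marks active promoters and enhancers, H3K4me1 marks enhancers, and H3K27me3 is the mark of Polycomb repression.

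Promoter sequences are printed first, because the lost regions at gene starts differed from the retained ones in CpG content. The sequences run from 250 bp before to 50 bp after the annotated start, 5′ to 3′, from RefSeq on GRCm38.p6, the assembly of mm10, and capitals mark every CpG. The first 6 are the starts with the longest Hep peaks in 3 patterns of loss defined below, among genes with a listed promoter sequence and no late or BEC peak at any start. Nat8f2 (chr6:85869088-85869387, minus strand) and Hpd (chr5:123182674-123182973, minus strand) still had peaks in both early and both intermediate libraries. Car5a (chr8:121944863-121945162, minus strand) and Rdh16f2 (chr10:127866226-127866525, plus strand) had peaks in both early and in no intermediate library, and Ces1e (chr8:93229570-93229869, minus strand) and Csrp3 (chr7:48843622-48843921, minus strand) in none of the 4. The last, Mlxipl (chr5:135106641-135106940, plus strand), encodes a glucose-responsive transcription factor and is a retained start, shown for contrast.
Nat8f2: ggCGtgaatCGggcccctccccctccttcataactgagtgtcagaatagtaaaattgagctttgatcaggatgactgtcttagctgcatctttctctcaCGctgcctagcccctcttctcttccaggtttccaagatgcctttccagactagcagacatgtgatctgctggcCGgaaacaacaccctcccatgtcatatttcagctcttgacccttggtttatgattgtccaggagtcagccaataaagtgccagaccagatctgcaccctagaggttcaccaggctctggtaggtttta
Hpd: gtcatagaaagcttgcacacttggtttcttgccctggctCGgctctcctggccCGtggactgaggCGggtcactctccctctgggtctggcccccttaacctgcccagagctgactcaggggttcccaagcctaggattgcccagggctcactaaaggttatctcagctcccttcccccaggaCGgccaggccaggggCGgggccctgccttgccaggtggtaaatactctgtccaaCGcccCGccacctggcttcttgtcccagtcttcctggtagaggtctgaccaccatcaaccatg
Car5a: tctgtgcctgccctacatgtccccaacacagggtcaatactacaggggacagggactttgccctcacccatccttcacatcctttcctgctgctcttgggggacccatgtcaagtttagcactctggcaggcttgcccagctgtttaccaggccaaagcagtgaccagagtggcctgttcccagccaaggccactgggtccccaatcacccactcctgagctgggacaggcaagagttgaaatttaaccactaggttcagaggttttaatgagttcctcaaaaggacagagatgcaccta
Rdh16f2: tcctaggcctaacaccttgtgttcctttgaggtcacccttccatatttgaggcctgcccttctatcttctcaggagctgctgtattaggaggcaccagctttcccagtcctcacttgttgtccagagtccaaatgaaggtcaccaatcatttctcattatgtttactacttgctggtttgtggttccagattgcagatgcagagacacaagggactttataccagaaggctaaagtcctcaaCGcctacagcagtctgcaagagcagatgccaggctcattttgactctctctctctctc
Ces1e: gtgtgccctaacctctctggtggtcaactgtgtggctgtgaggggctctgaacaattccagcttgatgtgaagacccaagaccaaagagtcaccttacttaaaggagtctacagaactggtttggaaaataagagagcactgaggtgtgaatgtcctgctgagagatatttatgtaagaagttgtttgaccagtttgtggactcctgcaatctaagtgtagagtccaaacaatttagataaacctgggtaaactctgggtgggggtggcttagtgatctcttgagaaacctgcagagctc
Csrp3: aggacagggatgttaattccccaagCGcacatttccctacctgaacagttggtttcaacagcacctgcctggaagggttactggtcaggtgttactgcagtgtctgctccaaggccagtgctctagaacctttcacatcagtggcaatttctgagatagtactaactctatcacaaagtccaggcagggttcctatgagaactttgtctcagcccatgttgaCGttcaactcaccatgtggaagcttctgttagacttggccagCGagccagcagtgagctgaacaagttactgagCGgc
Mlxipl: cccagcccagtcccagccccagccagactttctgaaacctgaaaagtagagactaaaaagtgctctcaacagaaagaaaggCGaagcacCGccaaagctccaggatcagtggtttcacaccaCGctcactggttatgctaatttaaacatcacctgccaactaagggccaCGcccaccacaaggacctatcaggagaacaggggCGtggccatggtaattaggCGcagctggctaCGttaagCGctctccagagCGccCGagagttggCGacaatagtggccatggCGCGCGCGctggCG
The 6 lost starts hold 0 to 7 CpG in 300 bases, with none in Car5a and none in Ces1e, and the retained Mlxipl start holds 16.

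This contrast held across the set. Of the 360 lost regions at a coding gene start, 284 were placed by a listed start and 76 by either end of a gene whose start is not listed; the former gave 259 different promoter sequences. These had a median of 5 CpG (interquartile range 2 to 15.5) against 23 (16 to 30) in 7520 retained promoters and 13 (4 to 24) in all 21263 listed coding starts. The ratio of observed to expected CpG was above 0.6 in 66 (25.5%) of the promoters at lost regions, in 81.7% of the retained ones and in 47.6% of all. For the 112 promoters of genes with no late or BEC peak at any start, the median was 3 CpG and the share above 0.6 was 3.57%, or 4 promoters. The plot of place and CpG content shows the separation.

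Short motifs of promoters and of hepatocyte transcription factors were searched on both strands of the same 300 bases, without a check for overlap between motifs. The TATA box core TATAAA was present in 44 of the 259 promoters at lost regions (17.0%), in 5.64% of retained and 12.6% of all promoters, and in 25.9% of the 112 without late or BEC peaks. It stood on the coding strand 35 to 20 bp before the start in 4.25%, 0.811%, 2.36% and 7.14% of these sets. CAAAGTCCA, a core of sites bound by HNF4, was found in 7 promoters at lost regions (2.70%), in 0.346% of retained and 0.451% of all promoters. GTTAAT, a short site of HNF1, was found in 13.9%, 3.66% and 6.25%, and the C/EBP core TTGCNNAA in 15.8%, 7.47% and 10.2% of the same 3 sets. In the printed sequences, Csrp3 has the HNF4 core at -77 and the short HNF1 site at -239. The sets also differ in base composition, with a median GC content of 52.0% at lost and 62.3% at retained regions, and its part in the motif shares was not tested.

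**Figure D1:**
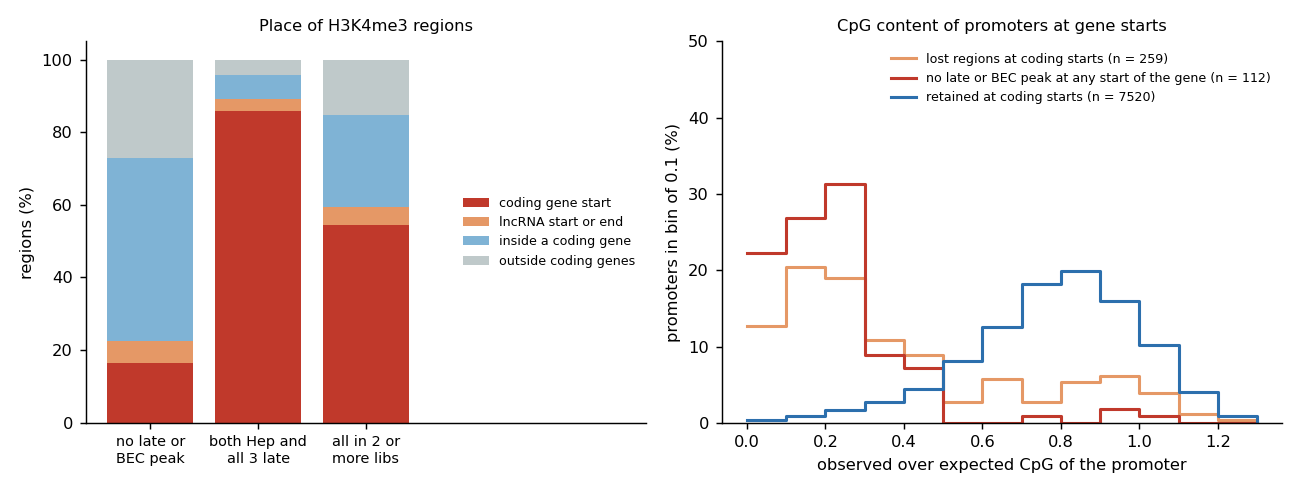
Left, share of H3K4me3 regions (%) by place for the 2202 lost regions (no late or BEC peak), the 10898 retained regions (both Hep and all 3 late) and all 27058 regions with a peak in 2 or more libraries. Right, share of promoters (%) per bin of observed over expected CpG for the lost regions at coding starts, those of genes with no late or BEC peak at any start, and the retained regions; the medians are 0.282 for the lost and 0.804 for the retained promoters.

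Each H3K4me3 library listed 19356 to 33762 peaks on the chromosomes used. Peak length differed between libraries, and the shortest peaks, with library medians of 129 and 89 bp, were those of intermediate 1 and late 1 for H3K4me3. Late 1 also had the shortest peaks for H3K27ac. Genes that define the cell types followed the sort in part: Krt19 and Krt7, keratins of bile duct cells, had no H3K4me3 peak within 1000 bp of the start in Hep and early libraries and had one in every intermediate, late and BEC library, and Hnf4a, a master regulator of hepatocytes, had one in every library. Of 30 biliary markers, 10 and 13 had a peak in the Hep libraries, 16 and 19 in early, and 21 to 28 in the others, and Epcam was covered over 266 bp in Hep 2 and 465 bp in early 2. The albumin gene Alb had no listed H3K4me3 peak at its start in either Hep library and 60, 209 and 17 bp in late and 315 and 170 bp in BEC libraries, so a missing peak is reported below only as no listed peak. Markers of stellate cells had peaks at 1 of 18 genes in Hep and early and at 3 to 5 of 18 in the other libraries, endothelial markers at 0 to 3 of 18, macrophage markers at 0 to 2 of 18 and lymphocyte markers at 0 to 2 of 16. The stellate marker with a peak in Hep and early was Reln, and Col1a1, Lrat, Rgs5 and Vipr1 were at 0 there. The part of such cells in the results was not tested. In sorted bulk cells, a mark present in fewer cells and a weaker mark in every cell cannot be told apart.

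Lost regions were short and mostly away from gene starts. Their median length was 375 bp (interquartile range 280 to 525, full range 138 to 2066), against 1193 bp for retained regions. The mean length covered in the Hep libraries had a median of 266.5 bp against 843.5 bp. By the authors' score, the median lost region ranked at percentile 24.5 of Hep 1 and 36.6 of Hep 2, and the median retained region at 70.8 and 76.8. Only 360 (16.3%) lay within 1000 bp of the start of a protein-coding gene, compared with 86.0% of the retained regions and 54.5% of all regions. A further 134 (6.09%) lay at the start or end of a long noncoding RNA gene, 1114 (50.6%) inside a coding gene and the other 594 outside coding genes.

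Several lost regions lay beside H3K4me3 that stayed. A late or BEC peak was present within 1000 bp of 535 lost regions (24.3%) and of 167 of the 360 at coding starts (46.4%). At the level of genes, 321 had a lost region at a start. Of these, 137 had no late or BEC peak at any of their starts, and 127 had a late peak in all 3 libraries at some start. The lost regions of the latter group thus lay at genes that kept H3K4me3 at the same or another start. Just outside the selection, 805 regions had peaks in both Hep libraries and in exactly 1 of the 5 late and BEC libraries, 403 of them in late 2. Their Hep length had a median of 318 bp, against 266.5 bp inside. On the other side, 4607 regions without late or BEC peaks had a peak in 1 Hep library alone.

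Early and intermediate peaks helped set the bounds of the merged regions, and could join a region to a late or BEC peak. The rule that kept regions did not otherwise use these libraries. H3K4me3 was already sparse there. A peak remained in 26.9% and 37.1% of the lost regions in the early libraries (32.0% ± 7.23, SD, n = 2) and in 13.9% and 18.3% in the intermediate ones (16.1% ± 3.08, SD, n = 2). Both early values lay above both intermediate values. With 2 libraries against 2, an exact permutation test cannot give a p below 0.333. Retained regions had a peak in 96.9% ± 1.45 (SD, n = 2) and 99.4% ± 0.31 (SD, n = 2) at the same stages. Unlike these shares, the limma fit over the 4 libraries used the length covered within 1000 bp of the region. None of the 982 lost regions tested passed an adjusted p of 0.05 for intermediate against early, and none of 21228 regions did (0%). In that fit 428 lost regions and 3165 of all regions had an unadjusted p under 0.05. The median log2 difference was -1.15 for the lost regions tested and -0.35 for all regions. For the 536 lost regions tested with no late or BEC peak within 1000 bp it was -1.55. With coverage inside the region only, the median was -1.39 for the 612 lost regions tested and -0.35 for all regions. The count of 0 did not hold with a pseudocount of 10 bp (212 lower, against 2.78% of all regions) or quantile normalization (220 lower, against 3.04% of all).

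Regions were divided by their peaks in these 4 libraries. The largest group, 1003 regions (45.5%), had no peak in any early or intermediate library. Another 211 (9.58%) had peaks in both early and no intermediate library, 75 (3.41%) in all 4, and 42 (1.91%) in no early and both intermediate libraries. The other 871 had a peak in part of a stage. Regions absent from early on were the weakest in Hep, with a median length of 231.5 bp, against 395.5 bp for those lost between early and intermediate and 473 bp for those kept in both. Gene starts were more frequent among the longer-lived regions: 115 of 1003 (11.5%), 53 of 211 (25.1%) and 29 of 75 (38.7%).

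Single genes with long Hep peaks follow, by pattern of loss. Ido2, an enzyme of tryptophan breakdown, had the longest region (chr8:24574337-24576402), covered over 2012 and 2066 bp in the Hep libraries, 1057 and 1671 bp at the early and 0 and 195 bp at the intermediate stage. Both early values lay below both Hep values and above both intermediate values.

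Among starts kept in early and intermediate cells, Hpd, the dioxygenase of tyrosine breakdown (chr5:123181143-123182881), had 1698 and 1348 bp of H3K4me3 in Hep, 725 and 1413 in early cells, and 209 and 180 at the intermediate stage. Lcat, which esterifies plasma cholesterol (chr8:105941918-105943538), had 1477 and 1487 bp in Hep, 1232 and 1400 bp at the early and 127 and 377 bp at the intermediate stage. Asgr2, a subunit of the asialoglycoprotein receptor (chr11:70092232-70093930), had 1438 and 1509 bp, 1366 and 1170 bp and 92 and 565 bp. In all 3 the intermediate peaks were shorter than every early peak. Cyp2a12, a cytochrome P450, Bhmt, which remethylates homocysteine, and Nat8f2, an acetyltransferase, completed the 6 longest of this group, with 1261.5 to 1695 bp in Hep on average.

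Among starts present in early and gone in intermediate cells, Car5a, the mitochondrial carbonic anhydrase of liver (chr8:121943159-121945198), had 1973 and 1890 bp in Hep and 1274 and 937 bp in early libraries. Nr1i3, the xenobiotic receptor CAR (chr1:171213857-171215179), had 1294 and 1319 bp in Hep and 1286 and 1273 bp in early libraries. The Nr1i3 peak was thus nearly as long in early cells as in Hep and had no listed counterpart in either intermediate library. Mbl2, the mannose-binding lectin of the complement system (chr19:30232828-30234023), had 1055 and 1104 bp in Hep and 193 and 417 bp in early libraries. Rdh16f2, a retinol dehydrogenase, Aspdh, an aspartate dehydrogenase, and Cyp3a25 had the same pattern, with early peaks of 226 to 1056 bp.

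Among starts without a peak from early on, the carboxylesterase Ces1f, placed by a gene end, (chr8:93277669-93278863) had 879 and 1104 bp in the Hep libraries, and Ces1e (chr8:93228581-93229404) had 464 and 710 bp. Acaa1a, a thiolase of peroxisomal fatty acid oxidation, had 711 and 847 bp, and Lifr, a cytokine receptor subunit, had 710 and 707 bp. Both of the latter genes keep a late or BEC peak at a start, as they are not among the 137. Cd1d1, which presents lipid antigens, and Csrp3, best known as a muscle LIM protein, belonged here with mean Hep lengths of 822 and 583.5 bp.

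**Figure D2:**
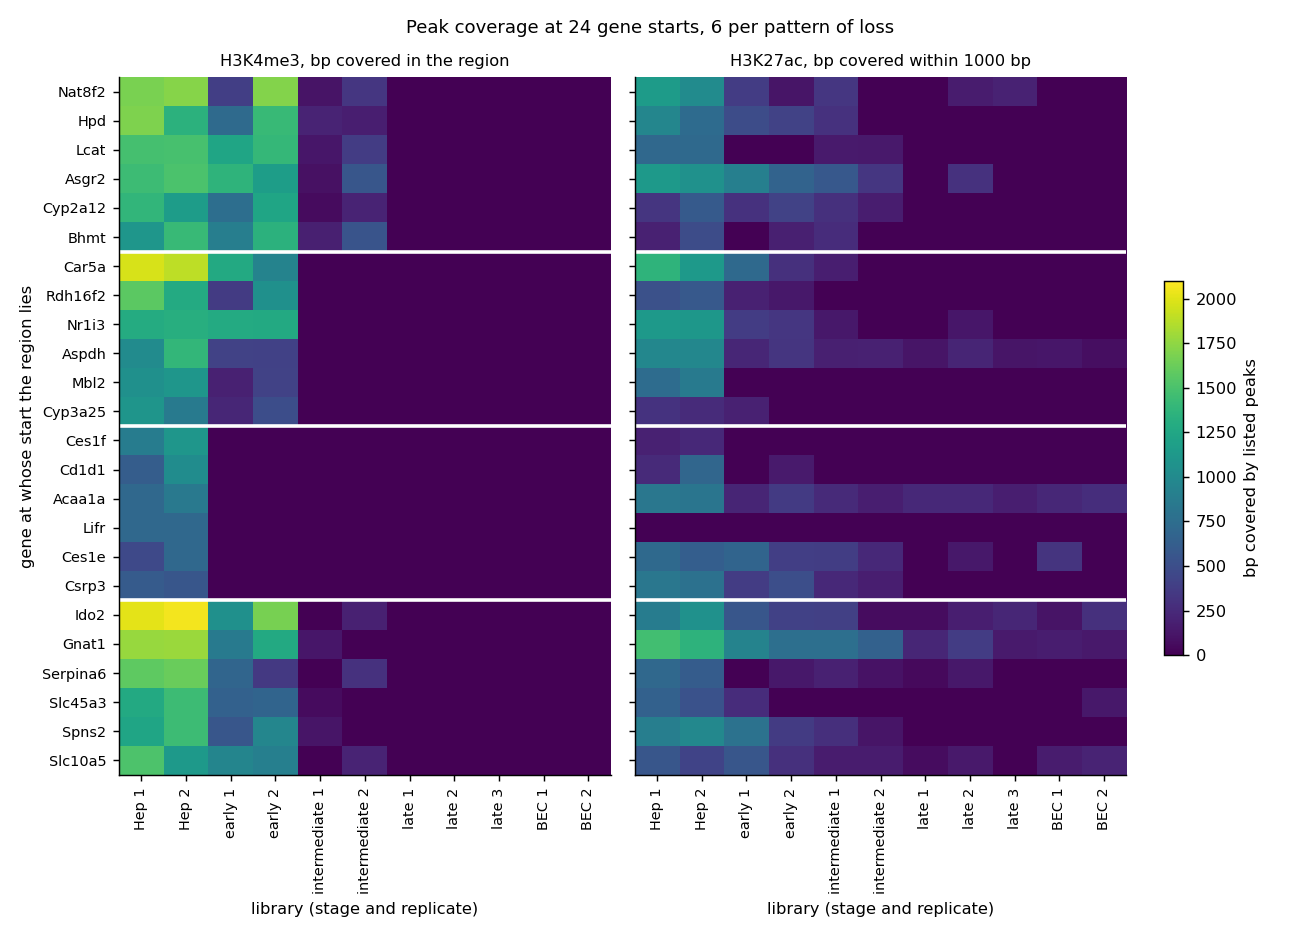
Length covered by listed peaks (bp, colour) at 24 gene starts, rows, in the 11 libraries, columns; left H3K4me3 within the region, right H3K27ac within 1000 bp of it. White lines separate, from top to bottom, starts kept in early and intermediate cells, lost between them, lost by early, and with mixed libraries, 6 each with the longest Hep peaks; late and BEC columns on the left are empty by selection.

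Lost regions at gene starts were counted over lists of genes of liver metabolism and secretion. Of 10575 coding genes with H3K4me3 at a start in both Hep libraries, 321 (3.04%) had a lost region, a share fixed by the selection and given only as the scale for the lists that follow. Cytochrome P450 genes had a lost region at 19 of 37 starts, and 16 of the 19 had no late or BEC peak at any start. Conjugating enzymes and carboxylesterases had one at 27 of 48, with 21 bare. Apolipoproteins and lipid carriers had one at 12 of 27, complement and acute phase genes at 13 of 37, clotting factors at 10 of 33, and amino acid breakdown at 9 of 29. Transporters of bile acids and organic anions had one at 6 of 20, bile acid synthesis at 3 of 15, glucose and fructose metabolism at 8 of 24, the hormone and growth axis at 9 of 35, and fatty acid and peroxisome genes at 7 of 41.

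Transcription factors were counted in the same way. Of 32 hepatocyte transcription factors and receptors with Hep H3K4me3, 5 had a lost region, and 1 of these, Nr1i3, had no late or BEC peak at any start. The other 4 were Stat5b, which signals for growth hormone, Klf15, a fasting-responsive factor, Zfhx4 and Onecut1, a factor shared by hepatocytes and bile ducts, and each had late or BEC H3K4me3 elsewhere at a start. In the urea cycle, Cps1, its entry enzyme, was the 1 gene of 10. Among zonation markers, 10 of 21 periportal and 6 of 20 pericentral genes had a lost region, as did 5 of 11 sex-biased genes. Of the comparison lists, 1 of 10 biliary genes (Onecut1) had one. Stellate, endothelial, macrophage and lymphocyte markers had none, with 2 of their genes marked in both Hep libraries.

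**Figure D3:**
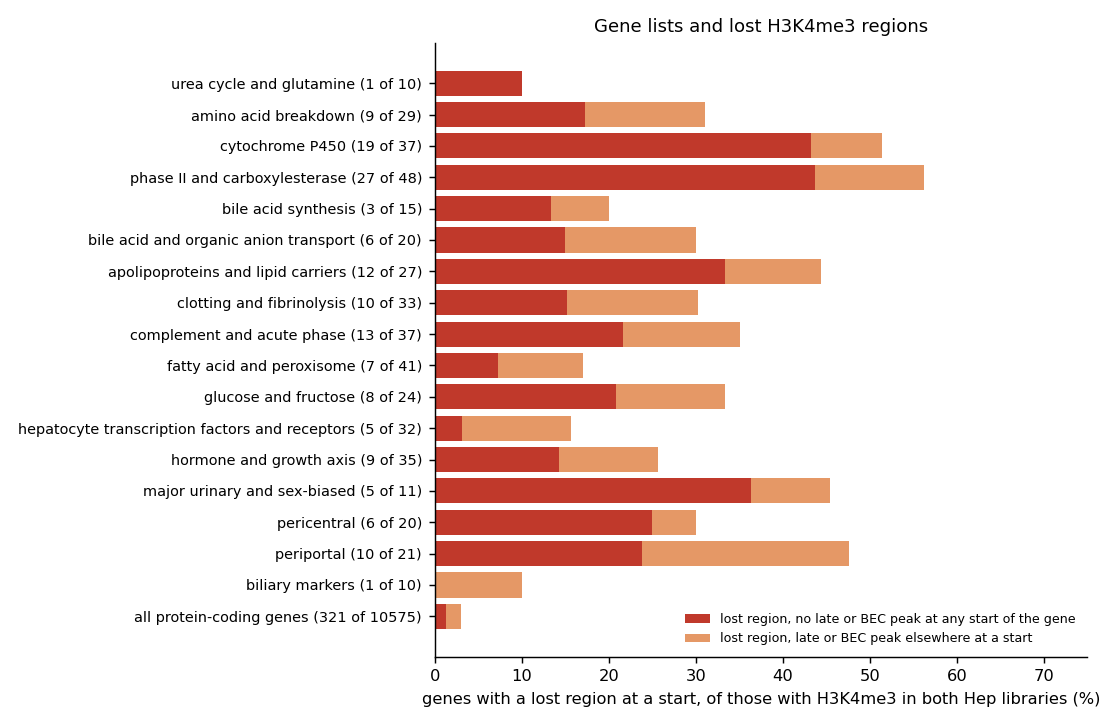
Share of genes (%) with a lost region at a start, of the genes of each list with H3K4me3 in both Hep libraries (numbers in brackets). Dark bars are genes with no late or BEC peak at any start and light bars those with such a peak; P450 genes reach 51.4% and conjugation genes 56.3%, against 3.04% of all coding genes.

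The stage at which the mark was last listed is given per list as a description of 4 libraries. All 9 amino acid breakdown genes kept a peak in both early libraries, and 5 of them in both intermediate libraries as well. Of the 7 fatty acid and peroxisome genes, 6 had no early peak. Cytochrome P450 genes were mixed, with 5 of 19 marked in both early libraries and 8 in none, and 1 marked in both intermediate libraries. Of the 12 apolipoprotein and carrier genes, 8 were marked in both early libraries and 2 in both intermediate ones. Over all 321 genes, 109 were marked in both early libraries and 130 in none.

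H3K27ac at the lost regions was measured in separate libraries that the selection did not use. A peak within 1000 bp was present at 92.3% and 93.0% of the lost regions in Hep and at 61.6% and 74.3% in early. The share was 72.0% and 62.5% in intermediate, 46.9%, 55.9% and 36.9% in late and 29.9% and 30.6% in BEC libraries. Every late library lay below every early and intermediate library, and both BEC libraries lay below every late library. Retained regions had similar shares in Hep and early (92.6% ± 1.60 and 68.2% ± 6.20, SD, n = 2 each) and stood at 88.8% ± 4.46 (SD, n = 3) in late and 84.1% ± 0.93 (SD, n = 2) in BEC libraries.

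**Figure D4:**
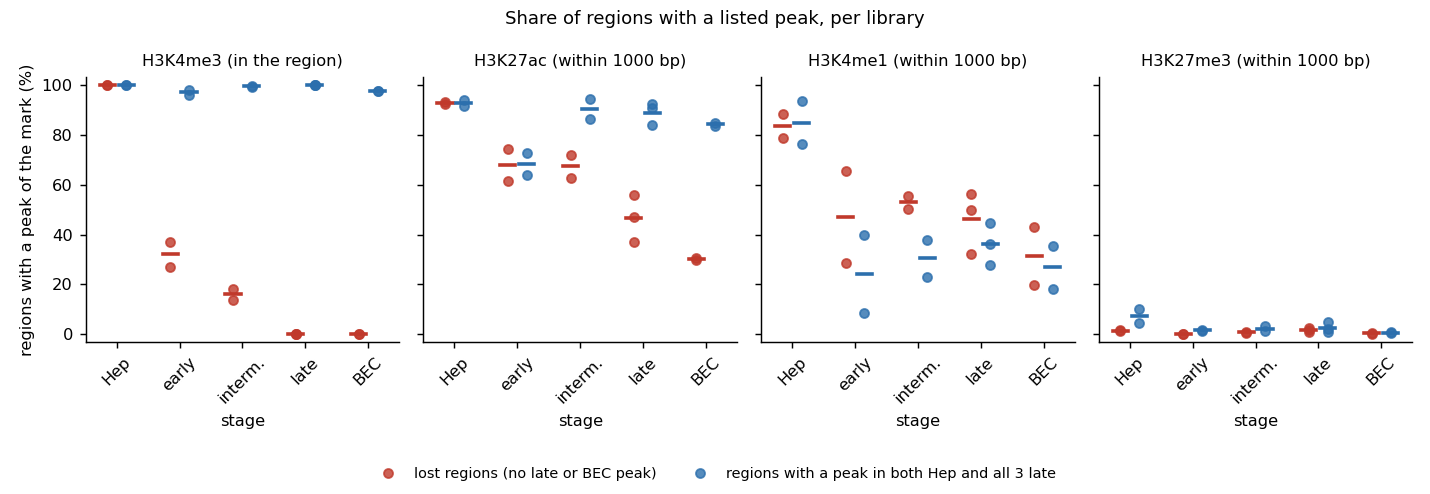
Share of regions (%) with a listed peak in each library, 1 panel per mark and 1 point per library, with bars at the stage means, for the 2202 lost regions and the 10898 retained regions. H3K4me3 in Hep, late and BEC was set by the selection; H3K27ac of the lost regions falls from over 92% in Hep to about 30% in BEC while the retained regions stand at 84.1% in BEC on average.

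Late and early cells, which share diet and sorting, were compared first. Of all 23515 regions tested, 3.83% had less H3K27ac in late than early cells at an adjusted p under 0.05 in the limma fit, and 6.87% had more. Of the lost regions, 2070 passed the filter on low values and 132 did not, and 468 had less and 15 had more H3K27ac in late cells. Retained regions had less at 65 of 10723 (0.606%). The median log2 difference was -0.75 for the lost regions tested and 0.12 for all regions. Because 323 of the 2070 passed only with the help of Hep libraries, the fit was repeated without the filter. It gave 361 of all 2202 lost regions with less H3K27ac, against 2.63% of all regions. The count fell to 307 with a pseudocount of 10 bp (2.38% of all regions), to 261 without early 1 (1.81%) and to 292 without late 3 (2.34%).

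The change can be followed at single genes. At Slco2b1, an organic anion transporter (chr7:99694551-99695867), H3K27ac covered 1383 and 1554 bp in Hep, 311 and 715 bp at the early and 355 and 0 bp at the intermediate stage, and no peak was listed in late or BEC (log2 difference -2.53, SE 0.56, adjusted p = 0.0204 for late against early). At Cyp2a12 it covered 323 and 594 bp in Hep, 303 and 412 bp at the early and 292 and 167 bp at the intermediate stage, and none in late or BEC (log2 difference -2.18, SE 0.32, adjusted p = 0.00422). At Rdh16, a retinol dehydrogenase, it covered 1101 and 1274 bp, 607 and 416 bp and 0 and 127 bp, and none in late or BEC (log2 difference -2.59, SE 0.36, adjusted p = 0.00382). In each of these the early libraries still held H3K27ac and no late library did. Differences are on the scale of log2 of bp covered plus 100.

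At other starts H3K27ac had no listed peak in early cells while H3K4me3 did. At Lcat, H3K27ac covered 712 and 719 bp in Hep, no peak was listed in either early library and 148 and 147 bp were covered in intermediate (log2 difference -3.03, SE 0.26, adjusted p = 0.00164 for early against Hep), although H3K4me3 covered 1232 and 1400 bp in the early libraries. At Mbl2 it covered 739 and 856 bp in Hep and none in any other library. At Cyp2e1, which oxidises ethanol, it covered 371 and 497 bp in Hep and none elsewhere, while H3K4me3 covered 710 and 346 bp in Hep and 625 and 1060 bp in early libraries. Mbl2 and Cyp2e1 entered the fit only through Hep, the group where they are high, so no test is given for them. These genes were picked out after their values were seen, from the genes named by rule.

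The opposite combination was also present. Ces1e and Csrp3 had no H3K4me3 peak inside the region in early or intermediate cells. In early libraries, H3K27ac within 1000 bp covered 677 and 391 bp at Ces1e and 374 and 503 bp at Csrp3. In intermediate libraries it covered 378 and 240 bp at Ces1e and 243 and 176 bp at Csrp3. The window was thus wider for H3K27ac than for H3K4me3. At Csrp3 no late or BEC library had a peak (log2 difference -2.42, SE 0.26, adjusted p = 0.00292 for late against early). At Ces1e late 2 and BEC 1 had one, and H3K27ac was lower in late than early cells (log2 difference -2.21, SE 0.61, adjusted p = 0.0481). The 1003 regions without H3K4me3 from early on had no peak inside the region. Of these, 172 had one within 1000 bp in 2 or more early or intermediate libraries. For H3K27ac, 939 of the 1003 were tested. Less H3K27ac in early than Hep cells was found at 249 (26.5%, beside 17.0% of all and 23.6% of retained regions), and 690 did not pass. The 939 include regions that passed the filter only with Hep libraries, as 323 of the 2070 lost regions tested did. No unfiltered count was made for this group.

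Against Hep, less H3K27ac was found at more regions. Less H3K27ac in late cells was found at 24.1% of all regions and more at 8.69%. Of the 2070 lost regions tested, 1393 had less and 5 had more, whereas 2486 of 10723 retained regions (23.2%) had less. The median log2 difference was -1.82 for lost and -0.72 for all regions. Quantile normalization moved the median of all regions to -0.0035 and that of the lost regions to -1.24, with 976 lost regions lower against 10.0% of all. Without the filter 1235 of all 2202 had less, against 17.0% of all regions. With Hep 1 left out, the median was -1.77 for lost and -0.77 for all regions, and with Hep 2 left out -1.83 and -0.69. Fewer lost regions and fewer of all regions passed in those fits. Of the 1667 lost regions with no late or BEC H3K4me3 within 1000 bp, 1567 were tested and 1143 had less H3K27ac in late cells. The 1567 also include regions that passed the filter only with Hep libraries.

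BEC cells were compared with the same Hep libraries, so this comparison is not independent of the last. Less H3K27ac was found at 22.3% and more at 10.7% of all regions, and at 1459 and 7 of the 2070 lost regions tested. Retained regions had less at 1937 (18.1%). The medians were -2.15 for lost and -0.63 for all regions. Without the filter, which 323 of the 2070 passed only with Hep libraries, 1321 of all 2202 lost regions had less, against 16.4% of all regions. With Hep 1 left out, the median was -2.13 for lost and -0.66 for all regions, and with Hep 2 left out -2.18 and -0.58. Fewer lost regions and fewer of all regions passed in those fits.

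By gene list, H3K27ac in late against Hep cells was lower at 20 of the 24 conjugation and carboxylesterase starts tested, 11 of 12 complement and acute phase starts, 8 of 9 amino acid breakdown starts, 8 of 10 clotting starts, 8 of 11 apolipoprotein and carrier starts, 9 of 15 cytochrome P450 starts and 2 of 5 fatty acid and peroxisome starts. Over all regions the share was 24.1%, and over lost regions at coding starts 66.4%, so the cytochrome P450 and fatty acid lists lay below the latter. These counts include starts that entered the fit only through Hep, Mbl2 and Cyp2e1 among them, and were not repeated without such starts. None of the starts of these lists had more. Their median differences ran from -0.89 for the fatty acid list to -2.30 for the clotting list, beside -1.66 for all lost regions at coding starts and -0.72 for all regions. F7, a factor of the extrinsic clotting pathway (chr8:13025584-13026868), had 1143 and 1139 bp in Hep, 216 and 377 bp in early, 252 and 0 bp in intermediate and none in late or BEC libraries (log2 difference -3.63, SE 0.47, adjusted p = 0.000935). Car5a had 1368 and 1136 bp in Hep, 716 and 288 bp in early, 177 and 0 bp in intermediate and none in late or BEC libraries (log2 difference -3.75, SE 0.46, adjusted p = 0.00075). At both genes each Hep value lay above all others. Less H3K27ac in late than early cells was found at 4 of the 24 conjugation starts, 3 of 12 complement, 3 of 9 amino acid breakdown, 3 of 10 clotting and 1 of 15 cytochrome P450 starts, beside 3.83% of all regions and 16.5% of lost regions at coding starts.

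Some starts kept H3K27ac within 1000 bp although no late or BEC H3K4me3 peak was listed inside the region. At Apof, an apolipoprotein (chr10:128268507-128269692), it covered 1444 and 1018 bp in Hep, 350, 496 and 364 bp in late and 432 and 425 bp in BEC libraries (log2 difference -1.40, SE 0.29, adjusted p = 0.00697), so the level was lower and every library had a peak. Apof also has late or BEC H3K4me3 at a start. Aspdh, with no late or BEC H3K4me3 at its start but a peak within 1000 bp of the region, had 968 and 972 bp in Hep, 118, 214 and 118 bp in late and 125 and 77 bp in BEC libraries (log2 difference -2.12, SE 0.29, adjusted p = 0.00122). Over all lost regions, 651 (29.6%) had an H3K27ac peak within 1000 bp in all 3 late libraries, 422 of them in both BEC libraries too, and 792 (36.0%) had none in any late library. At coding starts these were 105 and 150 of 360. The counts include lost regions with late or BEC H3K4me3 within 1000 bp. With such regions left out, H3K27ac was present at 41.3% on average in late libraries, against 46.6% of all lost regions. Whether the H3K27ac belongs to the neighbouring H3K4me3 was not tested. Of the 5 that rose, Src and Tgfb3 are coding starts with late or BEC H3K4me3 within 1000 bp of the region. At Src, a tyrosine kinase, no H3K27ac peak was listed in Hep, against 177, 141 and 315 bp in late libraries (log2 difference 1.60, SE 0.36, adjusted p = 0.0105), and at Tgfb3, a growth factor, late libraries had 202, 619 and 259 bp against 0 and 122 bp in Hep (log2 difference 1.52, SE 0.45, adjusted p = 0.0303).

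**Figure D5:**
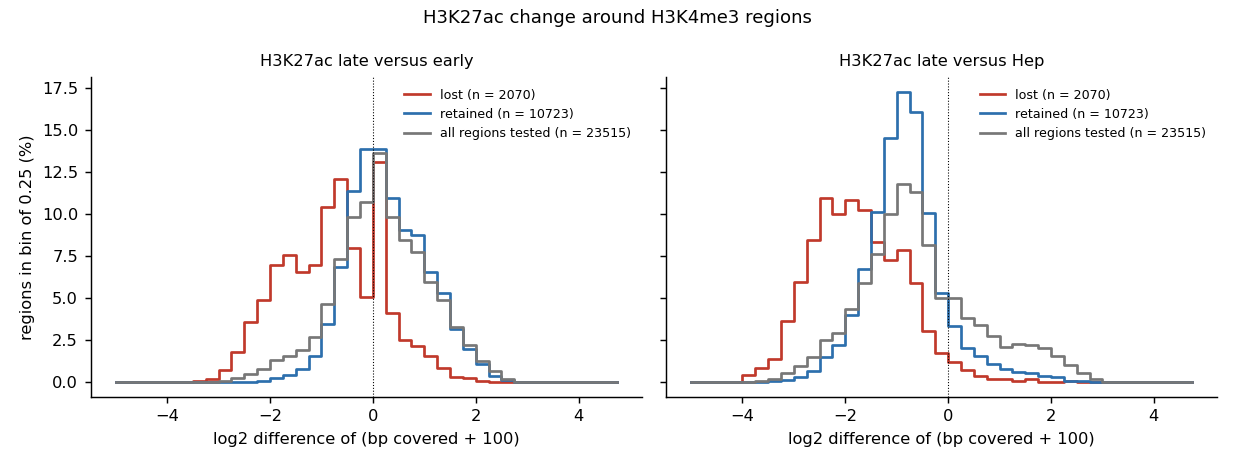
Share of regions (%) per bin of 0.25 of the log2 difference in H3K27ac coverage (bp + 100), late against early on the left and late against Hep on the right, for the lost regions tested, the retained regions and all regions tested. The lost regions lie to the left of both other sets in each panel, with medians of -0.75 and -1.82 against 0.12 and -0.72 for all regions.

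Early cells were also compared with Hep. Less H3K27ac in early cells was found at 17.0% of all regions and more at 2.56%, and at 463 and 2 of the 2070 lost regions tested (22.4% lower), close to the 23.6% of retained regions. The medians were -0.81 for lost, -1.02 for retained and -0.68 for all regions, and quantile normalization brought that of all regions to 0.02 and that of the lost regions to -0.08. With that normalization 677 of all regions (2.88%) were lower and 898 higher, and 135 lost regions were lower. Without the filter 397 of all 2202 lost regions had less, against 10.2% of all regions. With Hep 1 left out, the median was -0.75 for lost and -0.71 for all regions, and with Hep 2 left out -0.76 and -0.63. Fewer lost regions and fewer of all regions passed in those fits.

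For H3K4me1 the share of lower calls among lost regions depended on the scaling. A peak within 1000 bp was present at 83.4% ± 6.65 (SD, n = 2) of them in Hep, 47.1% ± 26.2 (n = 2) in early, 52.8% ± 3.53 (n = 2) in intermediate, 46.1% ± 12.6 (n = 3) in late and 31.2% ± 16.4 (n = 2) in BEC libraries. Retained regions had such a peak at 84.8% in Hep on average and at 8.39% and 39.6% in the early libraries. Their mean share was 30.4% in intermediate, 36.3% in late and 26.8% in BEC libraries. In each early, intermediate, late and BEC library the share was lower for retained than for lost regions. Late against Hep, 36.4% of 23187 regions were lower, and so were 807 of the 1964 lost regions tested (41.1%) and 50.1% of the retained regions. Of the 1964, 277 passed the filter only with Hep libraries, and without the filter 648 of all 2202 were lower, against 26.0% of all regions. With equal peak numbers per library 475 of 1280 lost regions were lower, against 21.9% of all, and with quantile normalization 132 of 1964, against 2.95% of all. With Hep 1 left out, the median log2 difference was -1.612 for lost and -1.504 for all regions, and with Hep 2 left out -1.598 and -1.245. Without late 1 and late 3, whose peaks were short, the median was -1.004 for lost and -1.009 for all regions. The lost regions thus did not stand apart from all regions in that fit. Fewer lost regions and fewer of all regions passed in these fits, each of which left 1 library in a group. An H3K27me3 peak was listed within 1000 bp of 128 lost regions in at least 1 library and of 7 in all 3 late libraries. Mean shares in Hep and late libraries were 1.52% and 1.67% for lost, 7.46% and 2.76% for retained, and 10.6% and 6.06% for all regions. The H3K27me3 lists held 2343 to 16597 peaks each.

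Some lost regions lay close together, among them starts of gene families. Joined at gaps of up to 100 kb, the 2202 regions formed 1385 groups, of which 912 held a single region and 39 held 5 or more, 233 regions in all. The largest group, 12 regions over 395.6 kb (chr10:127612126-128007722), included the starts of the retinol dehydrogenase genes Rdh16, Rdh16f2 and Rdh7 and of Hsd17b6. A group of 7 on chr5 (chr5:86904752-87140418) held the starts of the glucuronosyltransferase genes Ugt2b34, Ugt2b1, Ugt2b35, Ugt2b36 and Ugt2b5, and 5 of its regions had peaks in both early libraries. A group of 7 at the apolipoprotein locus (chr9:46215829-46271059) included Apoc3 and Apoa5, and a group of 6 (chr8:93079745-93337423) held the carboxylesterases Ces1b, Ces1e, Ces1f and Ces1g. Near-identical members of these families may share reads, which the peak lists cannot resolve. A group of 11 lay around Klf15 (chr6:90435189-90553963), with none of its regions in both early libraries.

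Lost regions away from coding starts showed less H3K27ac too. Of 1737 tested, 1172 (67.5%) had less in late than Hep cells, against 221 of 333 (66.4%) at coding starts and 24.1% of all regions. In late against early cells the counts were 413 (23.8%) and 55 (16.5%), beside 3.83% of all regions. These counts include regions that passed the filter only with Hep libraries, as 323 of the 2070 lost regions tested did. No unfiltered count was made by place. Without any filter, H3K27ac was listed at 93.2% of the lost regions away from coding starts in Hep and 47.2% in late libraries, on average. The longest such region (chr11:94136871-94138793), 72.7 kb from the nearest coding start, that of Tob1, had 1794 and 1881 bp of H3K4me3 in Hep and 628 and 505 bp in early libraries, and kept H3K27ac in every library, with 263, 742 and 741 bp in late. A region inside Fasn, the fatty acid synthase gene (chr11:120830759-120831921), had 751 and 1163 bp of H3K4me3 in Hep and none afterwards, while H3K27ac ran from 1135 and 1245 bp in Hep through 740 and 535 bp at the early stage and 271 and 0 bp in intermediate to none in late and BEC libraries. Both were picked after their values were seen. Of the 2202 lost regions, 373 (16.9%) lay close enough to another to share part of its window, so they are not independent of each other.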

How the data were processed

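Peak lists of 11 libraries for each of 4 marks (44 lists, 1341191 peaks) were used as deposited. Per the submitters' processing notes, the authors used Bowtie2, Picard, deepTools and MACS2 with build mm10; no source used here gives versions or settings. Each deposited list gives a peak's start and end and a score. No source used here defines the score, which served only to rank peaks within a list. Read depth is unknown from the lists, so no interval or limit based on counts is given. Peaks on other contigs (1210, 0.0902%) were left out.

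Overlapping H3K4me3 peaks were merged. For each region the base pairs covered by a list's peaks were summed, within the region for shares of H3K4me3 and within 1000 bp of it for all fits and for the other marks. Fits used limma (lmFit, eBayes) on log2(bp + 100), with Benjamini-Hochberg adjustment over all regions and a threshold of 0.05. They covered regions with H3K4me3 in 2 or more libraries and the tested mark in 2 or more of 11. H3K27ac and H3K4me1 were fitted over all 11 libraries, and H3K4me3 over the 4 early and intermediate libraries, with the mark in 2 or more of those 4. A peak's length is not its height, and differences of covered length understate changes at short peaks.

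Genes came from RefSeq on GRCm38.p6, with both gene ends tried for 4395 of 21887 coding genes without a listed start. The genes named are the 6 per pattern of loss with the longest Hep H3K4me3, up to 6 per gene list in the same order, and up to 6 per direction with the largest non-overlapping late against Hep H3K27ac change; genes outside this rule are marked where they appear. Genes whose symbol begins with Gm and a digit or ends in Rik were left out of this rule. The regions, gene lists and tests were chosen with earlier results of these data known. Replicate numbers were checked for pairing: the correlation of same-numbered libraries' deviations was above 0.1 in 1 of 20 pairs for H3K27ac and 2 of 20 for H3K4me1, so the numbers were not taken to pair libraries. The fits were tested on simulated data.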

Additional observations from a re-analysis of the deposited data

How the results depend on the processing

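The number of lost regions was 1667 to 2441 under other merging distances, equal peak numbers or a 1000 bp margin, and 2263 to 5942 when 1 library was left out; 5942 was reached without Hep 1. The intermediate share of 16.1% became 10.4% with equal peak numbers per library. Counts of lost regions with less H3K27ac in late than Hep cells (617 to 1461 with 1 library left out) and in BEC than Hep cells (916 to 1462) stayed within 1.5 times of the values reported under all other settings run; without either Hep library they were 617 and 627, and 916 and 930. Late against early, 468 became 307 with a pseudocount of 10 bp and 195 with the replicate block, and ranged from 261 to 544 with 1 library left out. Early against Hep, 463 became 253 with a pseudocount of 10 bp, 135 with quantile normalization and 294 with equal peak numbers, and ranged from 36 to 547. For H3K4me1, 807 became 441 with a pseudocount of 10 bp, 132 with quantile normalization, 475 with equal peak numbers, 449 with the replicate block and 228 without late 1 and 3, a setting chosen after seeing the data, and ranged from 0 to 861. The count of 0 for intermediate against early H3K4me3 became 212 with a pseudocount of 10 bp, 220 with quantile normalization and 362 with the replicate block, and was 0 whichever library was left out. The cause of these shifts was not tested. Where leaving out a library left a stage with 1, that library was assumed to vary like the other groups.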
